A study of Homo sapiens with 18 samples.

Results

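The 9 genes described here encode co-receptors, inhibitory receptors, phosphatases of antigen receptor signalling and other surface proteins of B cells. They are MS4A1 (CD20), CD22, CD72, CR2 (CD21), CD81, PTPN6 (SHP-1), INPP5D (SHIP-1), PTPRC (CD45) and CD37. What was measured is the openness of chromatin at regions, or peaks, in and around them. A peak was taken for a gene when its centre lay in the RefSeq span of that gene on GRCh38, or otherwise when that protein-coding gene was the nearest within 50 kb. This gave 32 of 71318 peaks, each 501 bp wide, and 59536 peaks had a gene in all. MS4A1 had 3 peaks, CD22 5, CD72 7, CR2 4, CD81 5, PTPN6 4, INPP5D 1, PTPRC 2 and CD37 1.

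Raji, an established line of Burkitt lymphoma B cells, was profiled by Omni-ATAC-seq, an assay whose transposase inserts adapters where DNA is accessible. The groups were cells of low GFP level at 24, 48 and 72 h and cells of high GFP level at 24, 48 and 72 h, and every sample carried the genotype label Smarca4+/+. The series concerns the removal of SMARCA4, the motor subunit of the BAF chromatin remodeller, by an auxin-inducible degron, a tag that sends a protein to the proteasome when auxin is added. The labels do not give what GFP reports, which GFP level goes with loss of SMARCA4, the dose of auxin or whether the line is 1 clone, so the groups are named by GFP level alone.

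B cells read antigen through a surface immunoglobulin, and co-receptors set how strongly that signal is passed on. CR2 binds complement fragments on antigen and joins the tetraspanin CD81 in the co-receptor complex, which lowers the threshold of activation. CD22 and CD72 carry inhibitory tyrosine motifs which, once phosphorylated, recruit the tyrosine phosphatase PTPN6. INPP5D removes a phosphate from the membrane lipid made by PI3-kinase, and PTPRC, a transmembrane tyrosine phosphatase, sets the state of the Src family kinases. MS4A1 and the tetraspanin CD37 are B-cell surface proteins used as targets of therapeutic antibodies.

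RefSeq promoter sequences (GRCh38.p14, 250 bases before to 50 after a start) were matched for 6 of the 9 genes, and 4 of these promoters lay whole within a peak of the same gene. They are shown because the accessibility of these 4 peaks is compared below. Those of PTPN6 and CD72 fell in GFP low cells, and those of CR2 and CD22 did not pass the test. Each is written 5′ to 3′ along the gene's strand, and the capitals mark GGAAGT, a core site of ETS factors, or CAGGTG, an E-box bound by E proteins.
PTPN6, the second of its starts, chr12:6951106-6951405, plus strand: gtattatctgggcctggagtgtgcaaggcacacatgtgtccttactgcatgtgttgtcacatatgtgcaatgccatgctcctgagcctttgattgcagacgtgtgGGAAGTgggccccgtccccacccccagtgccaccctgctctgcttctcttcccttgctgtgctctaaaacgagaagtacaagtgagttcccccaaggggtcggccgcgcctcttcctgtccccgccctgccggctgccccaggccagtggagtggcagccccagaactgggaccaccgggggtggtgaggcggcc
CD72, chr9:35618364-35618663, minus strand: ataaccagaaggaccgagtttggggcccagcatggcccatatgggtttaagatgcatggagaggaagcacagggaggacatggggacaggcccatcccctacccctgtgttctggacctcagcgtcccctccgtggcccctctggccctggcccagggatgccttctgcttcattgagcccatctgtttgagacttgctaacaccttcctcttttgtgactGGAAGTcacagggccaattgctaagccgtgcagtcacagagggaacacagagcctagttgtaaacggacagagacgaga
CR2, chr1:207454078-207454377, plus strand: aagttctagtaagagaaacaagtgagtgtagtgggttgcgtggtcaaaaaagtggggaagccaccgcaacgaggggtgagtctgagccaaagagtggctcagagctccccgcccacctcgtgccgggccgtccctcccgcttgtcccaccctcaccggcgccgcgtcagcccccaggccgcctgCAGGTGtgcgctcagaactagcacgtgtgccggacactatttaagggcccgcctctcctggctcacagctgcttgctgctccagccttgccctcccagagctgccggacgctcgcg
CD22, chr19:35328937-35329236, plus strand: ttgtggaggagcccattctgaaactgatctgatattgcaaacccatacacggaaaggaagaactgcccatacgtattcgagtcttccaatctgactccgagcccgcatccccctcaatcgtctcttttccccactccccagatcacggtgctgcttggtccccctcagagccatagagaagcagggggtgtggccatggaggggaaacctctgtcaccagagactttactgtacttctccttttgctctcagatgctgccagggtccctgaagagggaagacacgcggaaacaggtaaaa
Of 9 motifs searched on both strands, GGAAGT began at position -145 from the start of PTPN6 and at -29 from that of CD72. CAGGTG began at -66 from the start of CR2, and neither of these motifs stood in the CD22 window. GGAAGT occurred in 22.8% and CAGGTG in 20.6% of all 35116 promoters of the table. CR2 also had CACGTG (7.26% of promoters) at -45. CCAAT (34.6%) began at -165 in CD22 and at -16 in CD72, and GGGCGG (45.0%) at -142 in CR2 and at -24 in PTPN6. TGTGGT (13.1%), ATGCAAAT (1.77%), TGANTCA (7.71%) and TATAAA (11.5%) matched none of the 4 windows. The promoters held 61.7% (PTPN6), 56.3% (CD72), 64.0% (CR2) and 53.0% (CD22) G and C, against a median of 58.7% over all promoters.

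The sample titles give 3 replicates for each GFP level and time, and the counts hold 3 columns for each. The 3 columns of a GFP level at a time differed by a flat 1.80 times their counting variance (median over pairs of columns). Their counts were therefore summed and treated as 1 library. The 6 libraries held 22908652 to 29790483 counts, and accessibility is given as CPM, counts in a peak scaled to the library's total. Nothing in the labels says that the libraries came from separate cultures, so the spread between them may be technical. The p-values set the GFP difference against its variation between the 3 times, so a difference that changes with time counts as error. In bulk chromatin, fewer cells with an open site and less opening per cell cannot be told apart. Of 6 B lineage markers, 5 had a peak at a gene end, with 179 to 208 summed CPM in GFP low and 177 to 198 in GFP high libraries. Of 6 T cell markers, 4 had one, with 73.8 to 85.2 CPM in GFP low and 98.6 to 102 in GFP high libraries, and 3 of the 5 with any peak fell as gene sums, as did 11.6% of all gene sums. Of the 6 myeloid and 6 epithelial or stromal markers 1 each had an end peak, at 8.35 to 11.04 CPM in GFP low and 11.9 to 13.5 in GFP high libraries for the myeloid one, and at 7.61 to 11.5 in GFP low and 7.95 to 9.24 in GFP high libraries for the other. The part of these markers in the results below was not tested.

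Between GFP levels, 10 of the 32 peaks fell in GFP low cells, 0 rose and 22 did not pass the test, which set GFP low against GFP high over the 3 times (edgeR quasi-likelihood test, adjusted p under 0.05 over all 71318 peaks). At 31.25%, the share that fell stood close to the background of 25.4% of all peaks, while 13.4% of all peaks rose. The peaks that fell belonged to CR2 (3), CD72 (3), PTPN6 (2), MS4A1 (1) and CD81 (1), and none to CD22, INPP5D, PTPRC or CD37. At an unadjusted p under 0.05, 11 peaks were lower and 5 higher in GFP low cells, and the share of all peaks at this limit was not counted. DESeq2 called 6 lower and 0 higher, where it called 12810 of all 71318 peaks lower and 3721 higher. Without the 72 h libraries 3 falls passed (13393 of all peaks lower and 2503 higher). Without the 48 h libraries 7 falls and 5 rises passed (16381 of all peaks lower and 8667 higher). Under RLE scaling, which sets library size by median ratios, 3 rises passed (10076 of all peaks higher). The median log2 change of the 32 peaks, GFP low minus GFP high here and throughout, was -0.03, against 0.03 over all peaks.

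**Figure D1:**
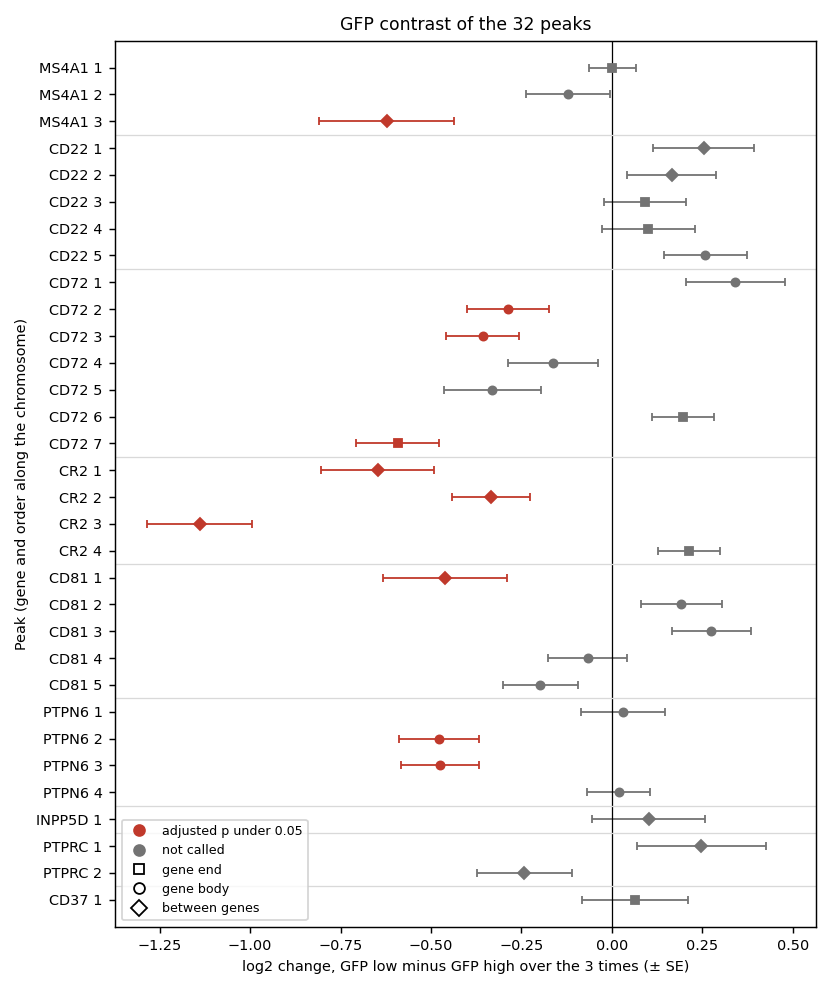
The log2 change of each of the 32 peaks, GFP low minus GFP high over the 3 times, is plotted with its standard error; red points have an adjusted p under 0.05 and the shape gives the position of the peak. All 10 red points lie left of 0, from CR2 peak 3 at -1.14 to CD72 peak 2 at -0.29, and the 5 CD22 points lie right of 0 in grey.

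Position made a difference over the whole table, so the members were also read by where they lie. Of 7 member peaks within 1 kb of a gene end, 1 fell and 0 rose, where the background was 4.24% lower and 34.4% higher. Within genes, 4 of 15 fell and 0 rose, with a background of 30.3% lower and 7.98% higher. Of the 10 between genes, 5 fell and 0 rose, with a background of 30.6% lower and 8.96% higher. Gene ends are the outer bounds of gene spans, so a start inside a span counts as within genes. PTPN6 peak 2 and CD72 peak 2, which hold promoters printed above, are thus among the 4 within genes that fell. Exons, introns and UTRs were not separated.

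In 11 of the 32 peaks the 3 GFP low values lay below the 3 GFP high values (25.1% of all peaks), in 3 they lay above (20.8% of all peaks), and in 18 they overlapped. Member peaks were higher than most: mean CPM over the 6 libraries ran from 3.99 to 79.0, with a median of 12.4 against 7.59 over all peaks, and 25 of 32 exceeded that median.

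**Figure D2:**
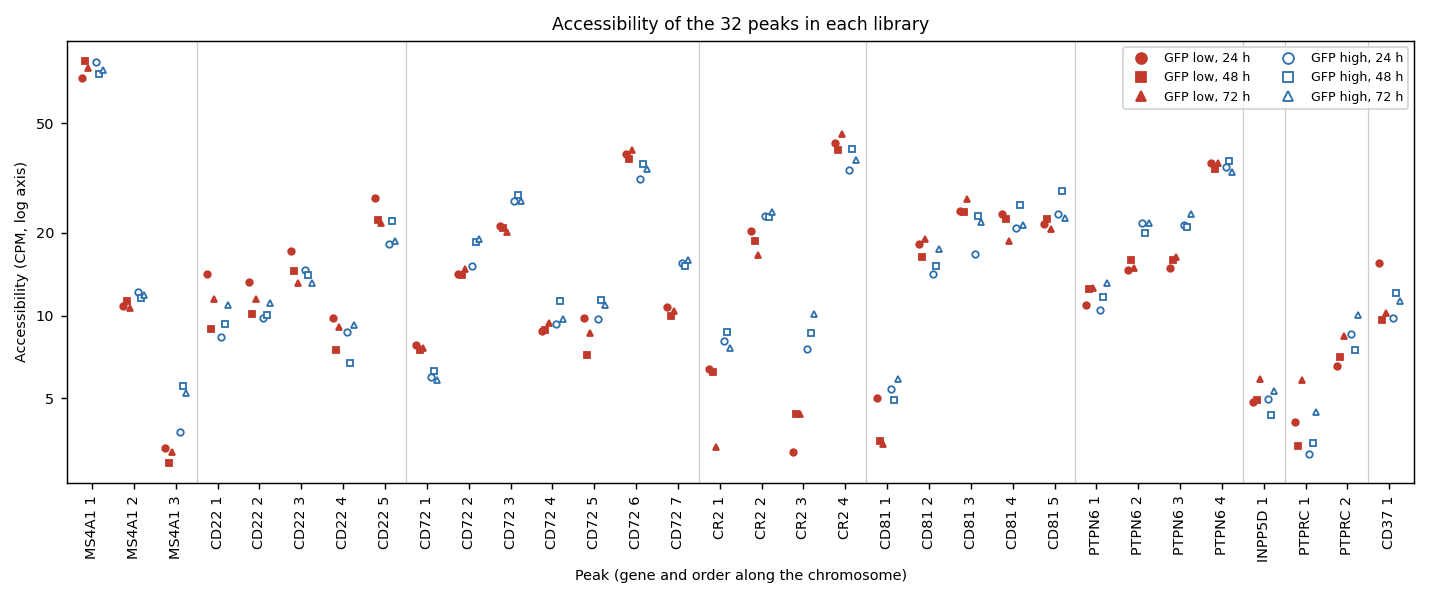
Accessibility in CPM on a log axis is shown for each of the 32 peaks in each library, GFP low in filled red and GFP high in open blue, with the symbol giving the time. The 3 red points of CR2 peak 3, at 3.18 to 4.38 CPM, lie below its blue points at 7.52 to 10.1, and those of MS4A1 peak 1 mix with its blue points near 79.0 CPM.

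Of the co-receptor genes, CR2, the complement receptor of B cells that is also the receptor of Epstein-Barr virus, had 4 peaks, numbered like those of the other genes by their order along the chromosome, and none inside the 35.6 kb gene among the peaks analysed here. The largest change of all 32 was at CR2 peak 3 (chr1:207430456-207430956, 23.6 kb before the start). It had 3.18, 4.37 and 4.38 CPM in GFP low cells at 24, 48 and 72 h, against 7.52, 8.64 and 10.1 CPM in GFP high cells. Every GFP low value stood below every GFP high value. This gave a log2 change of -1.14 ± 0.15 (SE; edgeR adjusted p = 3e-06), and the peak passed in all 13 alternative fits.

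Both peaks farther out also fell. CR2 peak 1 (chr1:207412044-207412544, 42.0 kb before the start) had 6.36, 6.22 and 3.33 CPM in GFP low cells and 8.08, 8.68 and 7.59 CPM in GFP high cells at 24, 48 and 72 h. The groups did not overlap, and the lowest value was that of GFP low cells at 72 h. Its log2 change was -0.65 ± 0.16 (edgeR adjusted p = 0.00228), and without the 72 h libraries the call was lost, at an adjusted p of 0.0995. CR2 peak 2 (chr1:207414473-207414973, 39.6 kb before the start) had 20.3, 18.6 and 16.6 CPM in GFP low cells and 23.1, 22.8 and 23.9 CPM in GFP high cells. Its log2 change was -0.33 ± 0.11 (edgeR adjusted p = 0.0179), which 3 of 13 alternatives lost, DESeq2 among them.

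The CR2 promoter, whose sequence is given above, did not follow them. CR2 peak 4 (chr1:207454007-207454507) had 42.6, 40.2 and 45.8 CPM in GFP low cells and 33.8, 40.4 and 36.8 CPM in GFP high cells. The groups overlapped by the 48 h pair alone. The log2 change was 0.21 ± 0.09 (edgeR adjusted p = 0.053), and it passed under RLE scaling (adjusted p = 0.0431) and without the 48 h libraries (adjusted p = 0.00614), but was 0.08 under loess scaling (adjusted p = 0.428) and did not pass in DESeq2 (adjusted p = 0.14). Peaks 1 to 3 lay more than 50 kb from any protein-coding gene other than CR2, and CR1 lay 41.9 kb from peak 4.

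CD81, the tetraspanin of the co-receptor complex, had 5 peaks, of which the one between genes fell. CD81 peak 1 (chr11:2358664-2359164, 17.3 kb from the nearer gene end) had 5.01, 3.48 and 3.40 CPM in GFP low cells and 5.42, 4.91 and 5.86 CPM in GFP high cells. The groups overlapped, since GFP low cells at 24 h stood above GFP high cells at 48 h. The log2 change was -0.46 ± 0.17 (edgeR adjusted p = 0.0365), and 6 of 13 alternatives lost the call. The 4 peaks inside the gene held more counts and did not pass. CD81 peak 3 (chr11:2384295-2384795) had 24.0, 23.7 and 26.5 CPM in GFP low cells and 16.7, 23.0 and 21.9 CPM in GFP high cells, and its log2 change of 0.27 ± 0.11 stood at an adjusted p of 0.0506. It passed under RLE scaling (edgeR adjusted p = 0.0424) and not in DESeq2 (adjusted p = 0.107). CD81 peaks 2, 4 and 5 had log2 changes of 0.19, -0.07 and -0.20 with adjusted p of 0.176, 0.641 and 0.131.

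MS4A1, the CD20 antigen, held the highest of the 32 peaks. MS4A1 peak 1 (chr11:60455375-60455875, 0.222 kb outside the gene end) had 73.1, 84.5 and 79.6 CPM in GFP low cells and 83.5, 75.4 and 78.1 CPM in GFP high cells. The groups overlapped, and their means were 79.0 ± 5.72 CPM in GFP low and 79.0 ± 4.12 CPM in GFP high cells (SD, n = 3 libraries each). The log2 change was 0.00 ± 0.06 (edgeR adjusted p = 0.991), and -0.21 (adjusted p = 0.0144) under loess scaling, which scales peaks by their abundance.

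At the other end of MS4A1 a weak peak fell. MS4A1 peak 3 (chr11:60476995-60477495, 6.49 kb outside the gene) had 3.29, 2.92 and 3.19 CPM in GFP low cells and 3.78, 5.53 and 5.22 CPM in GFP high cells. All GFP low values stood below all GFP high values, with a log2 change of -0.62 ± 0.19 (edgeR adjusted p = 0.011) that 4 of 13 alternatives lost. MS4A1 peak 2 (chr11:60457525-60458025), inside the gene, had 10.9, 11.3 and 10.6 CPM in GFP low cells and 12.2, 11.6 and 11.9 CPM in GFP high cells. These values did not overlap either, but the change of -0.12 ± 0.12 did not pass (edgeR adjusted p = 0.419).

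CD37, a tetraspanin of mature B cells, had 1 peak (chr19:49340162-49340662). Its centre lay 0.194 kb inside a bound of the CD37 span and 0.082 kb outside the span of SLC6A16. Whether the peak lies at the start of either gene was not determined. The peak had 15.6, 9.60 and 10.2 CPM in GFP low cells and 9.80, 12.0 and 11.3 CPM in GFP high cells. GFP low cells held the highest value, at 24 h, and the lowest, at 48 h. Over the times the log2 change was 0.06 ± 0.15 (edgeR adjusted p = 0.745).

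Of the inhibitory receptors, CD22, a lectin that binds sialic acids, had 5 peaks and no call. Its promoter, CD22 peak 3 (chr19:35328852-35329352), had 17.2, 14.5 and 13.1 CPM in GFP low cells and 14.7, 14.0 and 13.2 CPM in GFP high cells. The values overlapped, with a log2 change of 0.09 ± 0.11 (edgeR adjusted p = 0.535). The strongest, CD22 peak 5 (chr19:35330417-35330917, 1.48 kb into the gene), had 26.7, 22.2 and 21.8 CPM in GFP low cells and 18.1, 22.1 and 18.7 CPM in GFP high cells. Its log2 change was 0.26 ± 0.11 (edgeR adjusted p = 0.0739). It was widest at 24 h, and without the 48 h libraries it passed (adjusted p = 0.0154).

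The other CD22 peaks did not pass either. CD22 peak 1 (chr19:35323285-35323785, 5.65 kb before the start) had 14.2, 8.96 and 11.4 CPM in GFP low cells and 8.34, 9.29 and 10.97 CPM in GFP high cells. Its log2 change was 0.25 (edgeR adjusted p = 0.149). Without the 48 h libraries it passed at 0.40 (edgeR adjusted p = 0.0361), and it did not pass in DESeq2 (adjusted p = 0.319). CD22 peak 2 (chr19:35324090-35324590, 4.85 kb before the start) had 13.2, 10.1 and 11.5 CPM in GFP low cells and 9.76, 10.03 and 11.1 CPM in GFP high cells. The highest values of peaks 1 and 2 were those of GFP low cells at 24 h. Log2 changes were 0.16 at peak 2 and 0.10 at peak 4 (chr19:35329853-35330353), with edgeR adjusted p of 0.295 and 0.544. All 5 estimates were above 0, also under RLE and loess scaling and in DESeq2, and of the 5 none passed in the fit to 6 libraries. Without the 24 h libraries they shrank to 0.02, 0.04, 0.03, 0.08 and 0.12 for peaks 1 to 5.

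CD72, whose C-type lectin domain binds the semaphorin CD100, had 7 peaks over a 36.9 kb span with more than 1 start. Of these, 3 fell. CD72 peak 7 (chr9:35647295-35647795) lay 0.688 kb outside the upstream end of the span and 1.75 kb from SIT1. It had 10.7, 9.95 and 10.4 CPM in GFP low cells and 15.6, 15.2 and 16.0 CPM in GFP high cells. The groups stood well apart and each varied little, with means of 10.3 ± 0.380 CPM in GFP low and 15.6 ± 0.401 CPM in GFP high cells (SD, n = 3 libraries each). The log2 change was -0.59 ± 0.11 (edgeR adjusted p = 0.000296), and all 13 alternatives kept the call.

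Its neighbour and the peaks near the printed start were mixed. CD72 peak 6 (chr9:35646619-35647119), the strongest of the gene, lay at the upstream end of the span, where the outermost start of this minus-strand gene lies. It had 38.6, 37.2 and 40.0 CPM in GFP low cells and 31.4, 35.5 and 34.1 CPM in GFP high cells. The GFP low values stood above the GFP high values, yet the change of 0.20 ± 0.09 did not pass (edgeR adjusted p = 0.0708). Without the 48 h libraries it passed (edgeR adjusted p = 0.0403). The change was 0.08 under loess scaling (edgeR adjusted p = 0.444) and did not pass in DESeq2 (adjusted p = 0.159). The promoter printed above lies in CD72 peak 2 (chr9:35618183-35618683), which had 14.1, 14.1 and 14.8 CPM in GFP low cells and 15.1, 18.5 and 19.0 CPM in GFP high cells. It fell by 0.29 on the log2 scale (edgeR adjusted p = 0.0472), a call that 6 of 13 alternatives lost.

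CD72 peak 3 (chr9:35619346-35619846, 1.18 kb before that start) fell as well, with 21.1, 20.8 and 20.1 CPM in GFP low cells and 26.0, 27.5 and 26.0 CPM in GFP high cells. The groups were apart, at a log2 change of -0.36 ± 0.10 (edgeR adjusted p = 0.00791), lost without the 72 h libraries and without 1 set of columns. Peaks 2 and 3 were singled out after their values were seen. CD72 peak 1 (chr9:35611171-35611671, 6.99 kb downstream of the start) had 7.79, 7.47 and 7.64 CPM in GFP low cells and 5.98, 6.27 and 5.82 CPM in GFP high cells. All its GFP low values were the higher ones, and its change of 0.34 ± 0.14 missed the threshold at an adjusted p of 0.0513, passing under RLE (edgeR adjusted p = 0.0489) and loess scaling (0.0178) and not in DESeq2 (adjusted p = 0.192).

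Of the phosphatases, PTPN6, the enzyme that CD22 and CD72 recruit, had 4 peaks inside its 14.7 kb gene, and the middle pair fell. PTPN6 peak 2 (chr12:6951042-6951542), which holds the promoter of its second start given above, had 14.6, 15.9 and 14.8 CPM in GFP low cells and 21.6, 19.96 and 21.7 CPM in GFP high cells. PTPN6 peak 3 (chr12:6953374-6953874, 2.27 kb past that start) had 14.9, 15.9 and 16.3 CPM in GFP low cells and 21.3, 21.0 and 23.3 CPM in GFP high cells. At each of these peaks the groups were apart and the GFP low values lay close together. The log2 changes were -0.48 ± 0.11 at peak 2 (edgeR adjusted p = 0.00156) and -0.48 ± 0.11 at peak 3 (edgeR adjusted p = 0.00132). Peak 3 passed in all 13 alternatives, and peak 2 in all but the fit without the 72 h libraries (adjusted p = 0.0551).

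The outer PTPN6 peaks did not move with them. PTPN6 peak 4 (chr12:6958973-6959473, 7.87 kb past the start), the strongest of the gene, had 35.9, 34.1 and 35.8 CPM in GFP low cells and 34.8, 36.4 and 33.3 CPM in GFP high cells. PTPN6 peak 1 (chr12:6950249-6950749) had 10.9, 12.4 and 12.6 CPM in GFP low cells and 10.4, 11.7 and 13.1 CPM in GFP high cells. The values overlapped at each, with log2 changes of 0.02 ± 0.09 at peak 4 and 0.03 ± 0.12 at peak 1 (edgeR adjusted p = 0.875 and 0.848).

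INPP5D and PTPRC were represented here by peaks outside their genes only. INPP5D peak 1 (chr2:233053858-233054358, 6.23 kb before the start) had 4.86, 4.94 and 5.87 CPM in GFP low cells and 4.99, 4.34 and 5.30 CPM in GFP high cells. These overlapped, with a log2 change of 0.10 ± 0.16 (edgeR adjusted p = 0.623). PTPRC peak 1 (chr1:198771514-198772014, 14.3 kb past the gene end) had 4.10, 3.34 and 5.81 CPM in GFP low cells and 3.14, 3.42 and 4.46 CPM in GFP high cells. PTPRC peak 2 (chr1:198788598-198789098, 31.4 kb past it) had 6.55, 7.08 and 8.42 CPM in GFP low cells and 8.60, 7.49 and 10.04 CPM in GFP high cells. Each pair of groups overlapped, and the log2 changes of 0.25 and -0.24 had edgeR adjusted p of 0.276 and 0.145. These 3 peaks held 73 to 250 counts per library, with standard errors of 0.13 to 0.18.

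With the peaks of each gene summed, 1 of the 9 genes fell and 0 rose, against a background of 11.6% lower and 15.1% higher of 14735 genes. That gene was PTPN6, with 76.4, 78.4 and 79.5 CPM in GFP low cells and 88.1, 89.0 and 91.4 CPM in GFP high cells. Its log2 change was -0.20 ± 0.06 (edgeR adjusted p = 0.0313), at -0.21, -0.18 and -0.20 for 24, 48 and 72 h, and the call was lost without the 72 h libraries, at a change of -0.20 (adjusted p = 0.351), and without the columns numbered V2, at -0.14 (adjusted p = 0.128). CD72 summed to 109 ± 3.08 CPM in GFP low and 120 ± 6.402 CPM in GFP high cells, and CR2 to 70.6 ± 1.57 CPM in GFP low and 77.1 ± 4.17 CPM in GFP high cells (SD, n = 3 libraries each). Neither sum overlapped between the groups, but their changes of -0.14 and -0.13 did not pass (edgeR adjusted p = 0.0864 and 0.179). The share of all gene sums without overlap between GFP levels was not counted, so these separations have no background here. Under loess scaling they were -0.22 for CD72 and -0.22 for CR2 and passed (edgeR adjusted p = 0.0109 and 0.0196). CD22 had 70.4 ± 9.40 CPM in GFP low and 61.6 ± 1.82 CPM in GFP high cells, a log2 change of 0.18 (edgeR adjusted p = 0.116), with every GFP low value above the GFP high ones, by 63.2 CPM in GFP low against 63.1 CPM in GFP high cells at the closest. The CD22 change was 0.07 without the 24 h libraries (edgeR adjusted p = 0.51) and 0.08 under loess scaling. The sums of MS4A1, CD81, INPP5D, PTPRC and CD37 overlapped, with changes from -0.08 to 0.10. At an unadjusted p under 0.05, 2 gene sums were lower and 1 higher, and the share of all gene sums at this limit was not counted.

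Per peak, all windows being of 1 length, the genes ranked MS4A1 (31.5 CPM, mean of 6 libraries), PTPN6 (20.9), CR2 (18.5), CD81 (17.8), CD72 (16.4), CD22 (13.2), CD37 (11.4), PTPRC (6.04) and INPP5D (5.05). The ranges over the 6 libraries were apart for MS4A1 and PTPN6, at 29.1 to 33.2 and 19.1 to 22.8 CPM, and for CD37 and PTPRC, at 9.60 to 15.6 and 5.21 to 7.25 CPM. All other neighbours in this order overlapped.

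**Figure D3:**
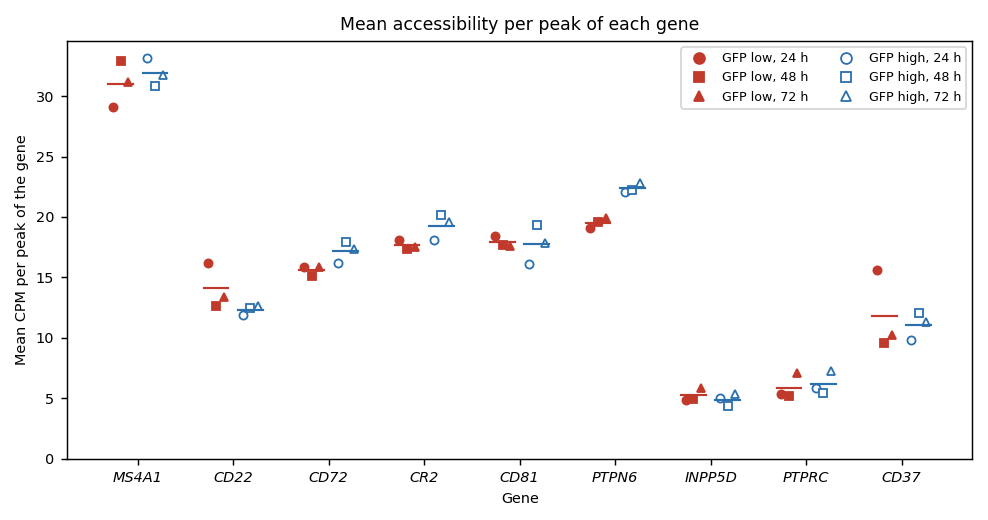
The mean CPM per peak of each gene is plotted for each library, GFP low in filled red left of GFP high in open blue, with a line at the mean of the 3 times. PTPN6 shows 3 red points at 19.1 to 19.9 below 3 blue points at 22.0 to 22.8, while the colours of MS4A1, CD81, INPP5D, PTPRC and CD37 overlap.

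With the columns summed, single times had 1 library per GFP level, so differences were counted by size and by a 95% counting interval, with no test. Member peaks at least 2-fold lower in GFP low cells numbered 1 at 24 h, 0 at 48 h and 2 at 72 h, where 8.21%, 3.84% and 3.88% of all peaks were. None was 2-fold higher at any time, as were 0.198%, 0.229% and 0.0911% of all peaks. CR2 peak 3 had differences of -1.23, -0.97 and -1.20 on the log2 scale at 24, 48 and 72 h, and CR2 peak 1 of -0.34, -0.47 and -1.18. Intervals below 0 numbered 7, 13 and 11 at 24, 48 and 72 h (27.2%, 24.1% and 23.5% of all peaks), and intervals above 0 numbered 8, 1 and 3 (21.9%, 15.9% and 16.3%). Intervals above 0 were most numerous at 24 h, with CD22 peaks 1, 2 and 5 and CD37 peak 1 among them.

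By its counting interval, the GFP low minus GFP high difference was higher at 72 h than at 24 h in 1 peak (7.12% of all peaks) and lower in 6 (7.64%). The 1 peak was MS4A1 peak 1, at 0.22 (interval 0.05 to 0.39). The 6 others were CR2 peaks 1 and 2, CD22 peaks 1 and 5, CD81 peak 4 and CD37 peak 1. At CR2 peak 1 the change of -0.83 (interval -1.45 to -0.22) went with a move of -0.92 from 24 to 72 h in GFP low cells and of -0.09 in GFP high cells. At CD37 peak 1 it was -0.81 (interval -1.25 to -0.37), with moves of -0.61 in GFP low and 0.20 in GFP high cells. The median change over the 32 peaks was -0.10, against -0.0026 over all peaks.

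**Figure D4:**
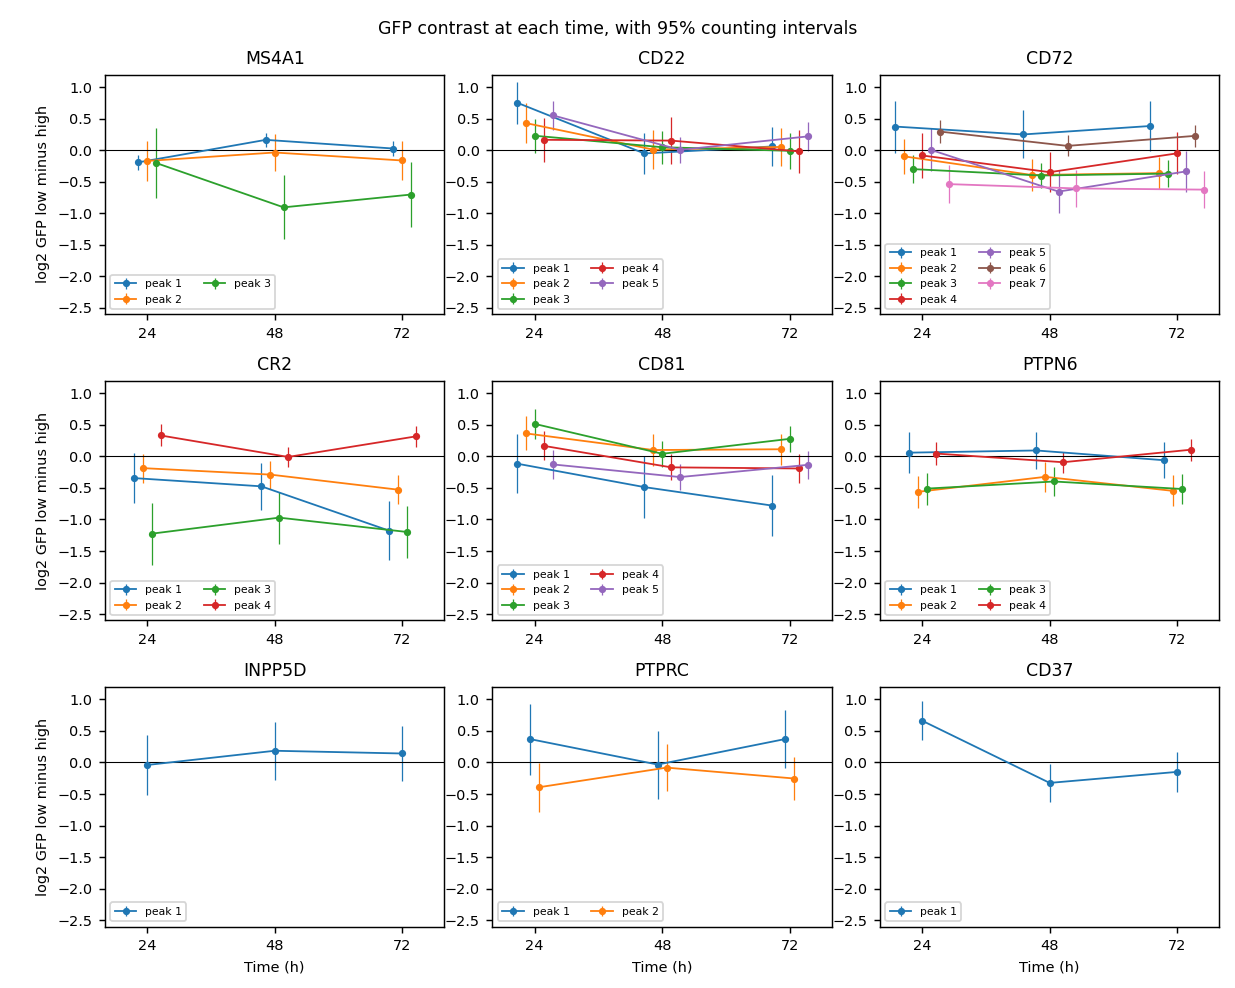
Each panel shows 1 gene, with the log2 difference of GFP low minus GFP high for each of its peaks at 24, 48 and 72 h and 95% counting intervals as bars; points are set slightly apart in time. CR2 peak 3 stays between -1.23 and -0.97 while CR2 peak 1 reaches -1.18 at 72 h, PTPN6 peaks 2 and 3 stay below 0, and several CD22 points and CD37 are highest at 24 h.

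Time itself moved no member past the threshold. Between 72 and 24 h over the GFP levels, 0 of 32 peaks were lower and 0 higher, with a background of 1.87% lower and 0.882% higher, and a smallest edgeR adjusted p of 0.209 at CR2 peak 3. At an unadjusted p under 0.05, 1 peak was lower (CR2 peak 1, -0.47) and 2 higher (CR2 peak 3, 0.44, and PTPRC peak 1, 0.50). The share of all peaks at this limit was not counted. DESeq2 called 0. Of the gene sums 0 passed, the smallest edgeR adjusted p being 0.265, at PTPRC, which summed to 11.2 CPM at 24 h and 14.4 CPM at 72 h.

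The wider pathway was read by gene sums from 4 lists of genes, which were chosen with earlier results of these data known. Of 11 inhibitory receptors of B cells with a peak, 7 fell and 0 rose in GFP low cells, where 11.6% of all gene sums fell and 15.1% rose, with a median log2 change of -0.29 against 0.10 over all gene sums. CD5, which dampens antigen receptor signals, had 11.6, 10.5 and 9.58 CPM in GFP low and 20.1, 17.7 and 17.4 CPM in GFP high cells (log2 change -0.80, edgeR adjusted p = 0.000326). PECAM1, which like CD22 carries inhibitory tyrosine motifs, changed by -0.76 and the Fc receptor-like FCRL4 by -0.35 (edgeR adjusted p = 0.00177 and 0.00329). T cells also express CD5, and the end peaks of the T cell markers, given above, summed to fewer CPM in GFP low libraries; their part in this count was not tested.

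Of 13 genes of the co-receptor complex and the tetraspanins, 2 fell and 0 rose, near the 11.6% of all gene sums that fell, with a median of 0.02. These were CD9, a tetraspanin partner of CD81, with 59.3, 72.3 and 78.1 CPM in GFP low and 89.4, 101 and 107 CPM in GFP high cells (log2 change -0.51, edgeR adjusted p = 0.000125), and TSPAN5 at -0.59 (edgeR adjusted p = 0.00145). The next, CD151, changed by 0.23 and did not pass (edgeR adjusted p = 0.115).

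Of 14 genes of the antigen receptor and its proximal kinases, 2 fell and 0 rose, again near the 11.6% of all gene sums that fell, with a median of -0.03. LYN, the kinase that phosphorylates CD22, changed by -0.19 and SYK, the kinase that docks on the receptor, by -0.18 (edgeR adjusted p = 0.00109 and 0.00991), and PIK3AP1 did not pass at -0.12 (edgeR adjusted p = 0.0697). Of 19 other phosphatases and adaptors of inhibition, 2 fell and 3 rose, near the 11.6% and 15.1% of all gene sums, with a median of 0.03. SLA, an adaptor that lowers antigen receptor levels, had 28.7, 27.2 and 22.3 CPM in GFP low and 58.0, 48.9 and 40.3 CPM in GFP high cells (log2 change -0.90, edgeR adjusted p = 3.23e-05). PHLPP1, a phosphatase of AKT, rose by 0.20 and PTPN1, a tyrosine phosphatase of the endoplasmic reticulum, by 0.25 (edgeR adjusted p = 0.009 and 0.014).

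Summed over all 9 genes, the peaks held 540 ± 11.3 CPM in GFP low and 561 ± 18.6 CPM in GFP high cells (SD, n = 3 libraries each), and these values overlapped. Among 7906 genes with 3 or more peaks, the centred log2 profile over the 6 libraries was nearest to this sum for CRADD, UPF2, NCR2, TMEM248 and NECTIN1, with root mean square differences of 0.0160, 0.0162, 0.0187, 0.0195 and 0.0195 on the log2 scale, where the median gene stood at 0.125.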

How the data were processed

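Omni-ATAC-seq of Raji cells was deposited as whole-number counts of reads per peak, not normalised by the authors, in 18 columns over 71318 shared peaks on hg38. The submitters' processing notes name BWA, FastQC, R 4.2.1 and deepTools. How peaks were called, duplicates treated and transposase offsets handled is not given in the sources used here, and duplicates kept would add noise. Column headers give a GFP level, D1 to D3, read as 24, 48 and 72 h, and a V number, which was not matched to replicate numbers. Columns of 1 GFP level and time (7106939 to 11171849 counts) were summed, leaving 6 libraries.

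The deposited counts were tested with edgeR 4.0.16 in R 4.3.3 (TMM, robust quasi-likelihood, terms for time and GFP level, 2 residual degrees of freedom, biological coefficient of variation 9.48%), with Benjamini-Hochberg adjustment over all peaks, or over 14735 genes for sums. No peak was removed for low counts. A median of 22.6 prior degrees of freedom was borrowed from other peaks, so p-values rest largely on these. Differences at single times used log2 CPM with a prior count of 2 and 95% intervals of counting error, widened by the noise ratio of 1.80; these cover counting error only. Alternatives were RLE and loess scaling (limma 3.58.1), DESeq2 1.42.0, a count filter, the 18 columns, pairs or columns left out, and narrower gene assignment. The fits were checked on simulated data. Of 100 peaks changed 1.5-fold 63 were recovered, and of 100 changed 2-fold all 100, while 10 unchanged peaks were called. For gene sums 88 of 100 and 100 of 100 were recovered, and 13 unchanged sums were called. In the simulation only 100 peaks or sums per fold were changed, all with a mean count of at least 30. In the deposited data 18125 peaks were lower and 9570 higher, so the simulated rates need not hold there.

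Genes came from a RefSeq table of 19880 protein-coding genes on GRCh38.p14 after 94 readthrough genes were left out. The members and gene lists were chosen with earlier results of these data known. All 9 members are named; every peak of members with 5 or fewer is named, and for CD72 those nearest an end, strongest, lowest and highest in change. Up to 3 genes per list with the smallest p, and the 5 genes nearest in profile, complete the rule.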

Additional observations from a re-analysis of the deposited data

Results flagged for a closer look

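Differences of opposite sign were flagged at 3 peaks, each resting on single libraries and on counting intervals, and none of these differences was tested. At MS4A1 peak 1, GFP low minus GFP high was -0.19 at 24 h and 0.16 at 48 h on the log2 scale, a gap of 0.36. At CD37 peak 1 it was 0.66 at 24 h and -0.32 at 48 h, a gap of -0.99. At CD22 peak 1, accessibility at 72 h against 24 h moved by -0.31 in GFP low cells and by 0.39 in GFP high cells, a gap of -0.70. Groups of 3 libraries are too small for the check for single samples far from the rest.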

How the results depend on the processing

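The calls at CR2 peak 3, CD72 peak 7 and PTPN6 peak 3 passed in all 13 alternative fits. The count of 10 peaks lower became 3 without the 72 h pair and 6 in DESeq2, and 6 with peaks within 10 kb only and 4 with peaks inside the gene only, where fewer peaks enter. The count of 0 higher became 3 under RLE scaling, 1 under loess scaling and 5 without the 48 h pair. Fitting the 18 columns gave 7 higher, with or without a replicate block by V number, and 7 with the V number read as time; leaving out 1 set of columns gave 0 to 2. Deviations of same-numbered GFP low and GFP high columns correlated at -0.0028 to 0.0132. Columns of a group differed by a flat multiple of counting noise, so values near 0 cannot decide whether the V numbers pair the samples. With that replicate block 12 peaks were lower.

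The count of 1 gene sum lower became 3 under loess scaling, without the 24 h pair, on 18 columns with or without the block and with the V number read as time, 0 without the 72 h pair, and 0 to 2 with 1 set of columns left out. The count of 0 gene sums higher became 1 on 18 columns with or without the block, without the 48 h pair and with V as time. For 72 h against 24 h, the 18 columns gave 1 lower and 1 higher, with or without the block. At single times, V as time gave 0, 1 and 1 peaks at least 2-fold lower at 24, 48 and 72 h. A limit of 1.5-fold gave 4 lower at 48 h, 5 lower at 72 h and 2 higher at 24 h. Leaving out 1 set of columns gave 0 to 1 at 48 h and 1 to 2 at 72 h. The cause of these changes was not tested.

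Over all peaks, 18125 were lower and 9570 higher; DESeq2 gave 12810 and 3721, the fit without the 72 h pair 13393 and 2503, and the 18 columns 20953 and 19287. The last treats columns as independent libraries. For single peaks and gene sums, 452 values kept their side of the threshold, 56 newly passed and 25 no longer did; the 10 called peaks and the PTPN6 sum stayed below 0 throughout. Depth limits the weakest member peaks, with 73 to 173 counts per library at MS4A1 peak 3, PTPRC peak 1, CD81 peak 1 and INPP5D peak 1.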
